A study of Homo sapiens with 16 samples.

Results

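The 45S precursor is the single long transcript that RNA polymerase I makes from each ribosomal DNA repeat. It carries 18S, 5.8S and 28S rRNA, set between spacers that are cut out and degraded while the ribosomal subunits are assembled. The external transcribed spacers (5′ ETS and 3′ ETS) lie at the ends of the transcript, ITS1 lies between 18S and 5.8S, and ITS2 lies between 5.8S and 28S. Cleavage and trimming are done in the nucleolus by endonucleases and exonucleases together with small nucleolar RNAs such as U3 and U8. H/ACA small nucleolar RNPs, whose synthase is dyskerin (DKC1), convert many uridines (U) of mature rRNA to pseudouridine.

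The positions described were those listed under the genes RNA45SN1 to RNA45SN5, with each surrounding 31-base sequence counted once and sequences also listed under 18S, 28S or 5.8S genes left out. This gave 6354 positions among 652574 distinct sequences in 10 tables. Of 8451 sequences under the 45S genes, 2097 were dropped because they were also listed under a mature rRNA gene. All came from RNA45SN1, RNA45SN2 and RNA45SN3 on chromosome 21 (plus strand, hg38), and RNA45SN4 and RNA45SN5 had 0 listed positions. Most sequences were common to the gene copies: 4129 were listed under 3 of the genes, 1140 under 2 and 1085 under 1. By position, 3741 lay in the 5′ ETS, 1270 in ITS2, 1022 in ITS1 and 273 in the 3′ ETS, and 48 lay inside an annotated mature rRNA. The label therefore describes spacer RNA almost throughout.

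Reverse-transcription stops were counted in poly(A)-selected RNA fragmented to about 250 nt, in 16 libraries that made up 8 groups of 2 replicates. In HEK293T, a wild-type human embryonic kidney line, the groups were CMC with Terminator, CMC alone (CMC+) and no CMC (CMC-). HCT116-shDKC1-1, a colorectal carcinoma line with DKC1 knocked down, was sampled with CMC and Terminator and without CMC. Wild-type HCT116 was sampled with CMC and Terminator, with CMC alone and without CMC. CMC is a carbodiimide whose adduct on pseudouridine stops reverse transcriptase, and Terminator is an exonuclease that needs a 5′ monophosphate to start on an RNA. RA3 and DA3 are named in the treatment labels of all groups, AP5 in those of the Terminator groups, RE in that of HEK293T with Terminator and XhoI in those of the HCT116 lines with Terminator. The labels name no batch and do not say whether replicates were separate cultures, so p-values measure only the spread between these samples. They do not say whether the knockdown line was 1 clone or a pool.

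The stop ratio is the number of reads that stop at a position as a percentage of the reads that cover it. Every table sets a treated library beside a CMC- library and lists a position only where the treated library has 5 or more stop reads, the CMC- library has 1 or more, and the treated ratio is not below the CMC- ratio, apart from 16 entries within rounding. A higher stop ratio over CMC- is therefore built into the tables, whereas the comparison of Terminator with CMC+ and the knockdown comparison are not fixed in this way. Covering reads are not listed by their direction, but a position is admitted through the stop reads of the treated library, so thinly covered positions may enter through the group where they are higher. Library totals were 14900000 to 19100000 reads in HEK293T, 22500000 to 31300000 in the Terminator tables of the HCT116 lines and 8700000 to 10200000 in the HCT116 tables without Terminator. The last tables and those of HEK293T hold fractional counts, and the Terminator tables of the HCT116 lines hold whole counts. The HCT116 CMC- libraries had totals of 27300000 and 31300000 in the Terminator tables and 8900000 and 10200000 in those without. Either the totals of these tables are not on 1 scale, or the controls, assigned by the tables' names, are not the same libraries. Keratin genes KRT8, KRT18 and KRT19, epithelial markers, had 107 to 422 listed positions each per HCT116 or HCT116-shDKC1-1 table and at most 1 per HEK293T table, while VIM, which encodes vimentin, had 369 to 459 per HEK293T table and 0 in the others. EPCAM had 8 to 11 and CLDN4 12 to 68 in the Terminator tables of the HCT116 lines, and both had 0 in the HEK293T tables. CDH2 had 0 and STMN1 3 to 12 in those Terminator tables, against 2 to 7 and 22 to 47 in the HEK293T tables. Some markers did not separate the lines: CEACAM6, LGALS4 and VIL1, chosen for HCT116, had 0 listed positions in all tables, and CDX2, an intestinal transcription factor, had 0 in the wild-type HCT116 tables, 0 and 1 in the knockdown tables and 0 to 8 in the HEK293T tables. TUBB2B, chosen for HEK293T, had 0 to 20 in the tables of the HCT116 lines and 1 to 10 in those of HEK293T. DKC1 had 2 and 1 listed positions in the 2 knockdown tables and 2 and 3 in the HCT116 Terminator tables, and none in all 4, so the knockdown could not be checked at a shared position.

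The following windows of 29 bases carry the positions on which the results turn, with the listed base in capitals, written 5′ to 3′ on the plus strand as the deposited tables give them (T for U).
28S, 6 nt before its first base (ITS2 of RNA45SN2, chr21:8213868-8213896): cggcccgtccccctCcgagacgcgacctc
28S, 5 nt before its first base (ITS2 of RNA45SN1, chr21:8441127-8441155): ggcccgtccccctcCgagacgcgacctca
5.8S, 11 nt after its last base (ITS2 of RNA45SN1, chr21:8439975-8440003): gcttgccgatcaatCgcccccgggggtgc
18S, 5 nt before its first base (5′ ETS of RNA45SN1, chr21:8436857-8436885): cgccgcgctctaccTtacctacctggttg
18S, 9 nt after its last base (ITS1 of RNA45SN1, chr21:8438739-8438767): tcattaacggagccCggagggcgaggccc
5′ ETS, nt 1543 (RNA45SN1, chr21:8434750-8434778): gaccctcctccgctTccccctcgacgggg
5′ ETS, nt 1977 (RNA45SN1, chr21:8435184-8435212): gctgcggtcgctccGgggcccccggtggc
5′ ETS, nt 2956 (RNA45SN2, chr21:8208929-8208957): ggtcgctcgccctcTccccgggtcggggg
5′ ETS, nt 2956 (RNA45SN1, chr21:8436163-8436191): ggtcgctcgcccttTccccgggtcggggg
ITS2, 276 nt before 28S (RNA45SN2, chr21:8213598-8213626): cccgacttccgcgtCggggcggcggcggc

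Spacer windows were rich in G and C. Their median G+C content was 80.6% over 31 bases (quartiles 74.2% and 87.1%, n = 6354 sequences), against 67.7% for mature rRNA sequences and 58.1% for all listed sequences. The listed base was G in 2519, C in 2492, U in 973 and A in 370 positions. U thus made up 15.3% of the spacer positions and 32.2% of all sequences. The listing was uneven between tables: 111 positions were listed in all 10 tables and 994 in a single one. The share of a table's sequences that lay in the 45S spacers was 3.5% to 4.21% in the Terminator tables of the HCT116 lines, 2.01% and 2.47% in the HCT116 tables without Terminator, and 1.12% to 1.43% in HEK293T.

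Among listed positions, the median stop ratio was highest in the few of the 3′ ETS. A listing needs 5 or more treated stop reads, so a thinly covered position is listed only at a high ratio. Median covering reads in HEK293T CMC+ were 63 and 114 in the 3′ ETS, against 172 and 270 in ITS2. Whether the order of the spacers follows depth was not tested. ITS1 stood above the 5′ ETS and ITS2 in each HEK293T library and in the HCT116 tables without Terminator. In those HCT116 tables its median stop ratio was 5.67% and 4.75% in CMC+ and 5.02% and 4.17% in CMC-, and that of ITS2 was 3.78% and 3.25% in CMC+ and 3.35% and 2.89% in CMC-. In HCT116 CMC- of the Terminator tables, the 5′ ETS, ITS1 and ITS2 had medians of 2.24%, 2.24% and 2.24% in replicate 1. In replicate 2 they had 2.02%, 2% and 2.01%. In HEK293T, over 483 positions listed in all tables, the median stop ratio was 4.44% and 4.29% with CMC and Terminator, 4.62% and 3.82% with CMC alone, and 3.77% and 3.31% without CMC (replicates 1 and 2). The CMC and Terminator values lay within the range of the CMC+ replicates, and both groups lay above CMC-, as the listing requires. In the Terminator tables of the HCT116 lines, over 1465 positions, the median was 4.02% and 3.07% in HCT116-shDKC1-1 with CMC and Terminator, against 2.38% and 2.06% in HCT116-shDKC1-1 CMC-. In HCT116 it was 3.77% and 3.42% with CMC and Terminator, against 2.24% and 2.03% in CMC-. The knockdown replicates with Terminator lay on either side of both wild-type replicates. Over the 8 3′ ETS positions of HEK293T, the median was 7.92% and 7.21% with CMC and Terminator, 9.55% and 7.86% with CMC alone, and 7.12% and 6.5% without CMC.

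**Figure D1:**
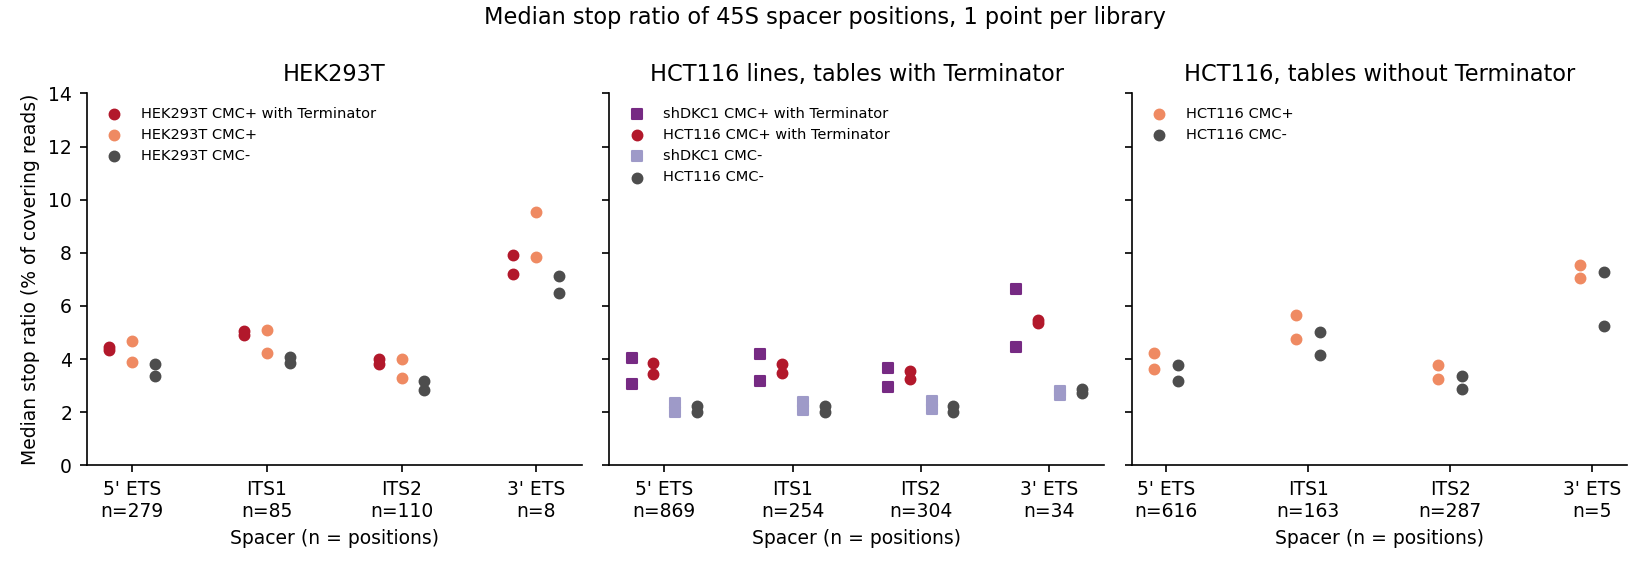
Median stop ratio, in percent of covering reads, of the listed positions in each spacer (x axis), 1 point per library, for HEK293T (left), the Terminator tables of HCT116-shDKC1-1 and HCT116 (centre) and the HCT116 tables without Terminator (right). The 3′ ETS, with 8, 34 and 5 positions, sits highest in every library, and ITS1 stands above the 5′ ETS and ITS2 in HEK293T (3.84% to 5.1%) and in the tables without Terminator (4.17% to 5.67%). Thinly covered positions are listed only at high ratios, and no correction was made for this.

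Some spacer positions had a high stop ratio without CMC. These were picked after their values were seen, among positions with at least 50 covering reads in each CMC- library. At nt 2639 of the 5′ ETS of RNA45SN3 (a U), the stop ratio was 46.7% and 52.9% in the HCT116-shDKC1-1 libraries with CMC and Terminator and 53.2% and 47.2% in the HCT116 ones, against 39.4% and 50.6% in HCT116-shDKC1-1 CMC- and 41.7% and 43.1% in HCT116 CMC-. At nt 2777 of the same copy (a U), CMC- libraries also reached 36.8% to 44.9%. Both were thinly covered. In HCT116 CMC-, nt 2639 had 72 and 72 covering reads and nt 2777 had 132 and 144, against spacer medians of 1120 and 1510. How reads that match several copies were assigned is not stated, and its part in these ratios was not tested. In HEK293T the highest ratios without CMC were at nt 971 and 975 of the 5′ ETS of RNA45SN2 (both U), where CMC- libraries gave 13.8% and 13.1% at the first and 13.1% and 13.0% at the second. With CMC and Terminator, nt 975 gave 15.3% and 16.2%, and with CMC alone 14.9% and 14.3%. In HEK293T CMC-, nt 971 had 63 and 74 covering reads, against spacer medians of 206 and 256.

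The effect of Terminator itself was asked in HEK293T, where CMC with Terminator can be set against CMC alone. The stop ratio was higher at 2 of 387 tested spacer positions and lower at 0, against a background of 0.897% of all 14825 tested positions called higher and 0.00675% called lower. Both lay just before the 5′ end of 28S. Calls required an adjusted p under 0.05 (edgeR quasi-likelihood test, Benjamini-Hochberg over all tested positions) and a fold of at least 2. The median log2 change was 0.07 for the spacer positions and 0.22 for all positions, and 256 of the 387 spacer values were above 0. When each library was centred on its median log ratio, the spacer median turned to -0.17 and no spacer position was called, so the direction of the median depends on the scaling.

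At the C 6 nt before 28S, the stop ratio was 6.96% and 8.04% with CMC and Terminator, 3.02% and 3.29% with CMC alone, and 3.01% and 2.76% without CMC. The means were 7.5% ± 0.764, 3.16% ± 0.191 and 2.88% ± 0.177 in the same order (SD, n = 2 each). The 2 Terminator libraries stood clear of the other 4, and the CMC+ and CMC- values lay next to each other without overlapping. The log2 change of the stop ratio, Terminator over CMC+, was 1.29 ± 0.11 (SE, edgeR adjusted p = 0.00678). At the U 7 nt before 28S in RNA45SN1, the ratio was 7.25% and 8.39% with CMC and Terminator, 4.01% and 3.62% with CMC alone, and 3.75% and 3.38% without CMC. Its log2 change over CMC+ was 1.05 ± 0.12 (SE, edgeR adjusted p = 0.0146). At the C 5 nt before 28S, which did not pass the call rule for the ratio, the values were 12.1% and 13.7% with CMC and Terminator, 8.41% and 8.19% with CMC alone, and 8.36% and 7.08% without CMC. Further than 8 nt from 28S the gap was smaller and no position was called. The C 20 nt before it had 4.14% and 3.88% with CMC and Terminator, 3.4% and 2.89% with CMC alone, and 2.96% and 2.66% without CMC, and the C 12 nt before it had 2.46% and 2.39%, 2.07% and 2.02%, and 1.99% and 1.93% in the same order. At both the Terminator libraries still stood above the other 4. The groups overlapped 18 nt before 28S, where the ratio was 1.75% and 1.36% with CMC and Terminator, 1.9% and 1.51% with CMC alone, and 1.74% and 1.26% without CMC. Both calls were lost without HEK293T CMC+ replicate 2 or without HEK293T CMC+ Terminator replicate 2 (0 called), and 1 position was called without HEK293T CMC+ replicate 1. DESeq2 called 0.

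**Figure D2:**
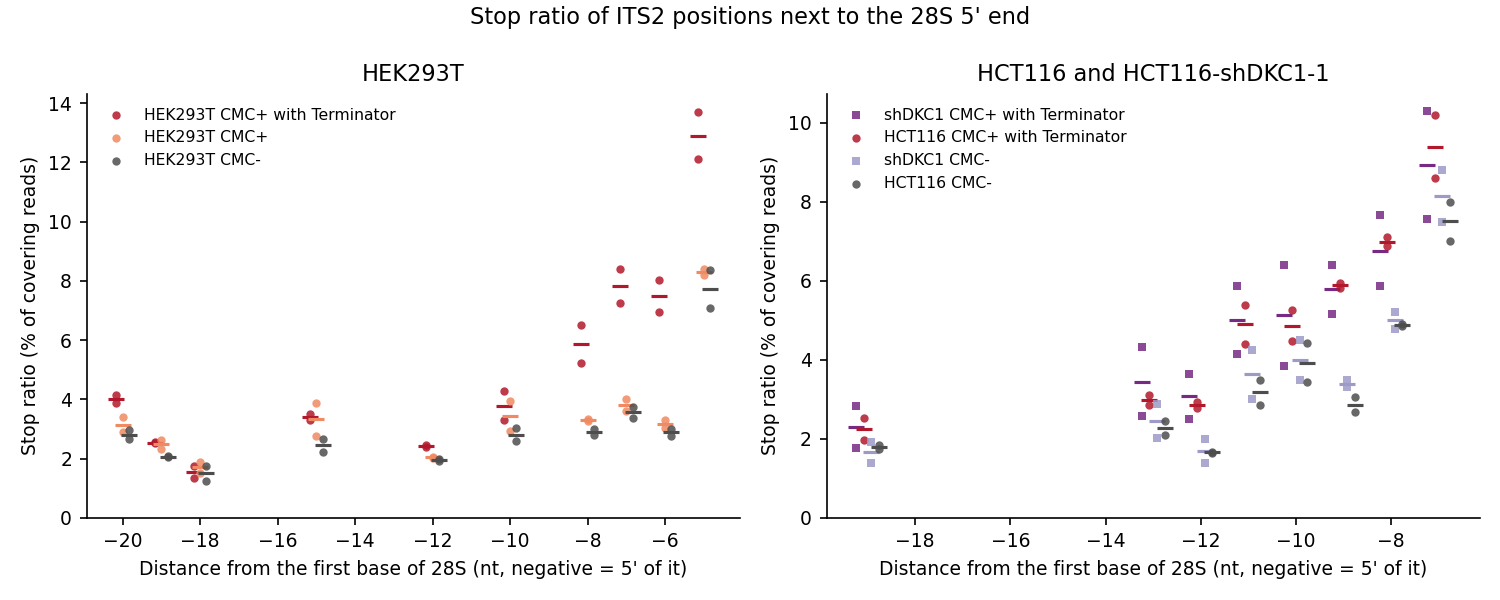
Stop ratio (percent of covering reads, y axis) of listed ITS2 positions up to 20 nt before the first base of 28S (x axis, nt), with 1 point per library and a bar at the mean of 2 replicates, in HEK293T (left) and in HCT116-shDKC1-1 and HCT116 (right). In HEK293T the CMC and Terminator points stand above the other groups between 8 and 5 nt before 28S, where they reach 13.7%.

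CMC alone gave no call among the spacer positions. In HEK293T CMC+ against CMC-, 0 of 387 positions were called by edgeR, 0 had an unadjusted p under 0.05 and DESeq2 called 0, against a background of 1.4% called higher. Of the 111 spacer U tested, 0 were called, while among mature rRNA positions 62 of 466 U and 3 of 1256 other bases were called. This difference between spacer and mature U was not tested. The median log2 change was 0.23 for the spacer positions and 0.29 for all positions. In HCT116 CMC+ against its CMC- control columns, where stop reads were compared at library totals, 0 of 324 spacer positions were called by edgeR, 0 had an unadjusted p under 0.05 and DESeq2 called 0. The background was 0.373% called higher and 0.0145% called lower, and 17 of 757 mature rRNA U were called higher.

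With CMC and Terminator against CMC- in HEK293T, 3 of 387 spacer positions had a higher stop ratio, a direction set by the listing, against a background of 12.3%. They were the positions 6, 7 and 8 nt before 28S, with log2 changes of 1.40 ± 0.11, 1.14 ± 0.12 and 1.03 ± 0.14 (SE; edgeR adjusted p = 0.000388, 0.00128 and 0.0125). In mature rRNA, 113 of 466 U and 38 of 1256 other bases were called in the same comparison. None of the 3 spacer calls was made by DESeq2, or by edgeR without HEK293T CMC- replicate 2 or without HEK293T CMC+ Terminator replicate 2.

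In the HCT116 lines the same contrast gave many more calls, at higher counts of covering reads. The median covering reads per listed spacer position were 1090 to 1970 in these libraries, against 206 to 333 in the HEK293T libraries of this contrast. Covering reads are whole counts in the HCT116 lines and fractional in HEK293T, so these depths are not on 1 scale. The counts of calls therefore cannot be compared between the lines. CMC with Terminator against CMC- gave 265 of 1433 positions with a higher stop ratio and 0 lower in HCT116-shDKC1-1, 18.5% of the spacer positions against a background of 19.5%. In HCT116, 359 of 1433 were higher and 0 lower, which is 25.1% against a background of 24.8%. Both shares lie near the background, and the direction is set by the listing. The median log2 change was 0.59 in HCT116-shDKC1-1 (0.57 over all positions) and 0.67 in HCT116 (0.64 over all positions). Of the HCT116-shDKC1-1 calls 193 were also called in HCT116, 72.8% of the 265 and 53.8% of the 359. Both lists come from 1 fit, and the overlap over all tested positions was not counted, so this overlap is no result about the spacers. By base, the calls covered 53 of 317 U and 212 of 1116 other bases in HCT116-shDKC1-1, and 66 of 317 U and 293 of 1116 other bases in HCT116. In mature rRNA they covered 126 of 571 U and 188 of 1795 other bases in HCT116-shDKC1-1, and 162 of 571 U and 248 of 1795 other bases in HCT116. These differences between bases were not tested. With each library centred on its median log ratio, the calls fell to 38 in HCT116-shDKC1-1 and 50 in HCT116, and the medians turned to -0.10 and -0.11. The changes given below therefore include a general shift of 0.57 in HCT116-shDKC1-1 and 0.64 in HCT116 on the log2 scale. Because the listing sets their direction, neither a gap between treated and CMC- libraries nor an adjusted p can show that direction.

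Among the spacers, HCT116-shDKC1-1 calls covered 161 of 852 positions in the 5′ ETS, 53 of 251 in ITS1, 40 of 301 in ITS2 and 10 of 26 in the 3′ ETS. In HCT116 they covered 221 of 852, 80 of 251, 52 of 301 and 5 of 26. The 5′ ETS is bound by U3, which guides the early cleavages that release 18S. Its named positions with large changes were spread over the spacer, among them nt 714, 1543, 1977 and 2956. At nt 1543 (a U), the stop ratio was 5.99% and 4.26% in HCT116-shDKC1-1 with CMC and Terminator, against 0.698% and 0.682% in HCT116-shDKC1-1 CMC-. In HCT116 it was 4.93% and 4.16% with CMC and Terminator, against 0.854% and 0.611% in CMC-. The 4 treated libraries all stood above the 4 CMC- libraries, a direction that the listing sets within each replicate. The log2 change was 2.82 ± 0.19 in HCT116-shDKC1-1 and 2.64 ± 0.21 in HCT116 (SE; edgeR adjusted p = 1.17e-07 and 2.89e-07). The C at nt 1541 gave 6.94% and 6.72% in HCT116-shDKC1-1 with CMC and Terminator and 7.49% and 6.39% in HCT116, against 1.12% and 1.07% in HCT116-shDKC1-1 CMC- and 1.43% and 1.02% in HCT116 CMC-.

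At nt 1977 of the 5′ ETS (a G), the HCT116-shDKC1-1 libraries had 4.78% and 4.82% with CMC and Terminator, against 2.04% and 0.437% in CMC-. Here the CMC- replicates of the knockdown differed from each other more than the treated ones did. The HCT116 libraries had 20 and 25 stop reads with CMC and Terminator, or 6.33% and 4.82%, against 1 and 1 stop read in CMC-, or 0.246% and 0.171%. With 2 control stop reads in all, the ratio of the stop ratios was 26.7, with an exact counting interval of 6.98 to 227 (95%). In ITS2, the C 276 nt before 28S had 16 and 29 stop reads in HCT116 with CMC and Terminator against 1 and 1 in CMC-, a ratio of 9.8 (95% counting interval 2.56 to 83.4). For the C at nt 2983 and the C at nt 2995 of the 5′ ETS of RNA45SN1, with 2 and 3 HCT116 CMC- stop reads in all, the ratios were 3.38 and 1.46. Their 95% counting intervals were 0.839 to 29.5 and 0.424 to 7.8. Intervals of this kind cover counting error only. The listing sets the direction here too, so an interval above 1 does not test it.

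Next to the mature ends, counts of calls varied from end to end, against a background of 19.5% of all positions called higher in HCT116-shDKC1-1 and 24.8% in HCT116. The direction is set by the listing, and differences between ends were not tested. After the last base of 5.8S, in the stretch of ITS2 that is trimmed to form the 5.8S 3′ end, 8 of 11 tested positions were called higher in HCT116-shDKC1-1 and 9 of 11 in HCT116. The C 11 nt after 5.8S had a stop ratio of 6.09% and 6.54% in HCT116-shDKC1-1 with CMC and Terminator, against 2.16% and 1.88% in HCT116-shDKC1-1 CMC-. In HCT116 it had 7.16% and 7.26% with CMC and Terminator, against 1.84% and 1.74% in CMC-. Its log2 change was 1.66 ± 0.14 in HCT116-shDKC1-1 and 2.01 ± 0.14 in HCT116 (SE; edgeR adjusted p = 6.52e-07 and 1.07e-07). At 19 nt after 5.8S, where neither line had a call, the ratio was 1.19% and 0.962% in HCT116-shDKC1-1 with CMC and Terminator and 1.01% and 1.02% in HCT116, against 0.898% and 0.861% in HCT116-shDKC1-1 CMC- and 0.768% and 0.491% in HCT116 CMC-. Neighbouring positions share reads and are not independent of each other.

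After the last base of 18S, in the part of ITS1 that is removed last from 18S, 5 of 13 tested positions were called higher in HCT116-shDKC1-1 and 6 of 13 in HCT116 (background 19.5% and 24.8%). The C 9 nt after 18S gave 4.26% and 5.11% in HCT116-shDKC1-1 with CMC and Terminator, against 1.99% and 2.09% in HCT116-shDKC1-1 CMC-. In HCT116 it gave 5.49% and 6.97% with CMC and Terminator, against 1.59% and 1.94% in CMC-. The groups did not overlap, in the direction that the listing sets within each replicate. The log2 change was 1.19 ± 0.18 in HCT116-shDKC1-1 and 1.81 ± 0.19 in HCT116 (SE; edgeR adjusted p = 0.000136 and 6.39e-06).

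**Figure D3:**
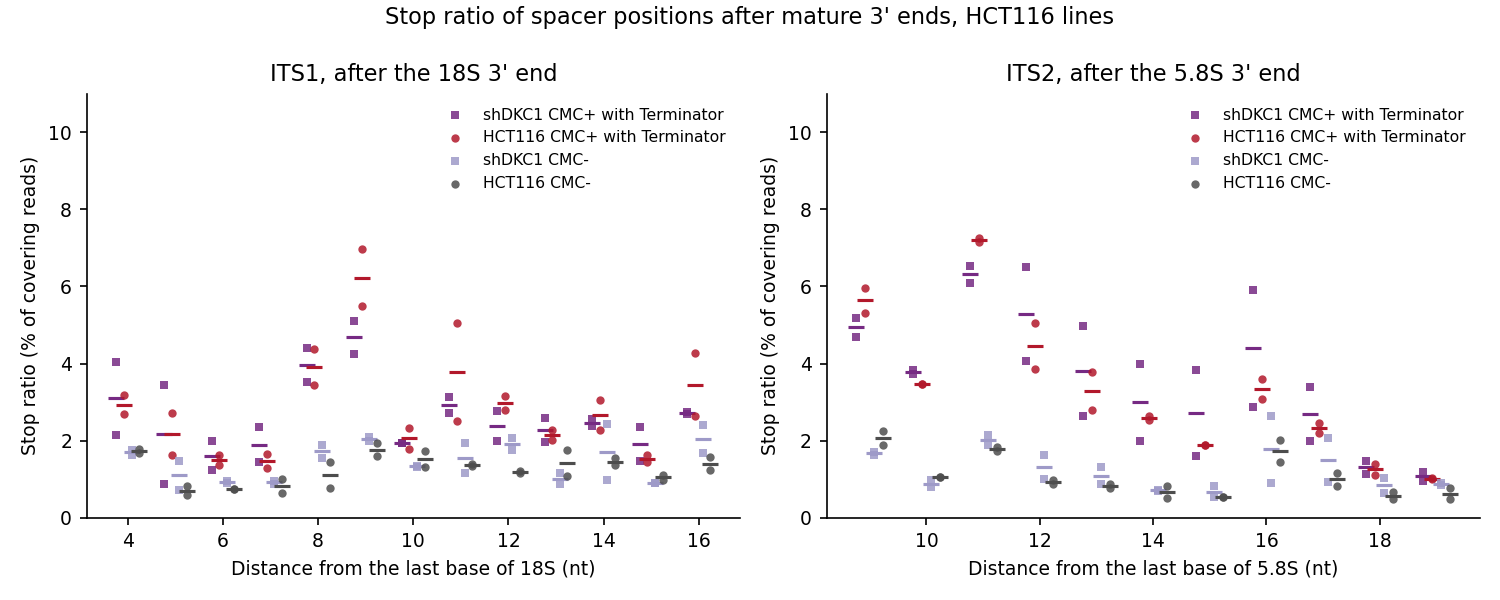
Stop ratio (percent of covering reads, y axis) of listed positions after the last base of 18S (left) and of 5.8S (right) by distance in nt (x axis), in HCT116-shDKC1-1 and HCT116, with 1 point per library and a bar at the mean of 2 replicates. The CMC and Terminator libraries stand above the CMC- libraries at most distances and reach 6.97% after 18S and 7.26% after 5.8S.

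Before the first base of 18S, at the last bases of the 5′ ETS, the U at 5 nt gave 6.97% and 6.6% in HCT116-shDKC1-1 with CMC and Terminator, against 1.6% and 3.11% in HCT116-shDKC1-1 CMC-. In HCT116 it gave 7.85% and 9.66% with CMC and Terminator, against 3.19% and 3.73% in CMC-. The log2 change was 1.54 ± 0.20 in HCT116-shDKC1-1 and 1.34 ± 0.19 in HCT116 (SE; edgeR adjusted p = 4.84e-05 and 8.47e-05). Before the first base of 5.8S, at the end of ITS1, 0 of 7 positions were called in HCT116-shDKC1-1 and 2 of 7 in HCT116 (background 19.5% and 24.8%). The C 10 nt before it gave 6.53% and 6.8% in HCT116-shDKC1-1 with CMC and Terminator, against 3.5% and 3.31% in CMC-, and 7.47% and 7.34% in HCT116 with CMC and Terminator, against 2.89% and 2.32% in CMC- (log2 change 0.98 ± 0.14, under the fold minimum, and 1.52 ± 0.14, SE; edgeR adjusted p = 7.53e-05 and 1.86e-06). The U 5 nt before 5.8S had high ratios throughout and did not pass the call rule: 17.9% and 15.3% in HCT116-shDKC1-1 with CMC and Terminator and 17.9% and 15.4% in HCT116, against 14.8% and 15% in HCT116-shDKC1-1 CMC- and 15.7% and 15% in HCT116 CMC-. Before 28S, against the same background, 0 of 8 positions were called in HCT116-shDKC1-1 and 1 of 8 in HCT116, the C at 9 nt. It gave 6.4% and 5.17% in HCT116-shDKC1-1 with CMC and Terminator, against 3.48% and 3.32% in CMC-, and 5.82% and 5.95% in HCT116 with CMC and Terminator, against 3.05% and 2.68% in CMC-. The U 7 nt before 28S, called in HEK293T in the RNA45SN1 copy and tested here in the RNA45SN2 copy, did not pass the fold minimum. It had 10.3% and 7.56% in HCT116-shDKC1-1 with CMC and Terminator and 10.2% and 8.6% in HCT116, against 8.8% and 7.48% in HCT116-shDKC1-1 CMC- and 7.99% and 7.02% in HCT116 CMC-. The U at the last base of 5.8S itself stayed between 1.56% and 2.41% in all 8 libraries.

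Without Terminator, stops next to the mature ends of HCT116 RNA were already frequent in CMC-. The C 5 nt before 28S gave 29.8% and 27.5% in HCT116 CMC+, against 29.2% and 26.2% in HCT116 CMC-. The U 2 nt before 5.8S gave 21.2% and 21.7% in CMC+, against 21.2% and 21% in CMC-, and the C 2 nt before 18S gave 14.5% and 13.6% in CMC+, against 14.3% and 12.6% in CMC-. The CMC+ and CMC- values overlapped at each of these positions. For 269 positions present in both kinds of HCT116 table, the median stop ratio was 4.56% and 4.08% with CMC and Terminator and 3.98% and 3.2% with CMC alone. Both Terminator libraries lay above both CMC+ libraries at 138 positions and below both at 26. These tables were counted differently, so no test was made. The HCT116 CMC- columns gave medians of 3.04% and 2.62% in the tables with Terminator and 3.48% and 2.87% in those without.

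DKC1 knockdown was asked as a difference in the response to CMC and Terminator between HCT116-shDKC1-1 and HCT116. No spacer position was called among 1433 (edgeR), 2 higher and 22 lower had an unadjusted p under 0.05, and DESeq2 called 0. The background was 0% called higher and 0.0115% called lower of 26153 positions. The median difference in log2 change was -0.08 for the spacer positions and -0.07 for all positions. At nt 1977 of the 5′ ETS the difference was -2.61 ± 0.80 (SE, edgeR adjusted p = 1), and at the C 11 nt after 5.8S it was -0.35 ± 0.21 (SE, edgeR adjusted p = 1). The 317 spacer U had a median difference of -0.06 and the other 1116 bases -0.08. A position that misses the threshold is not shown to respond alike in both lines.

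**Figure D4:**
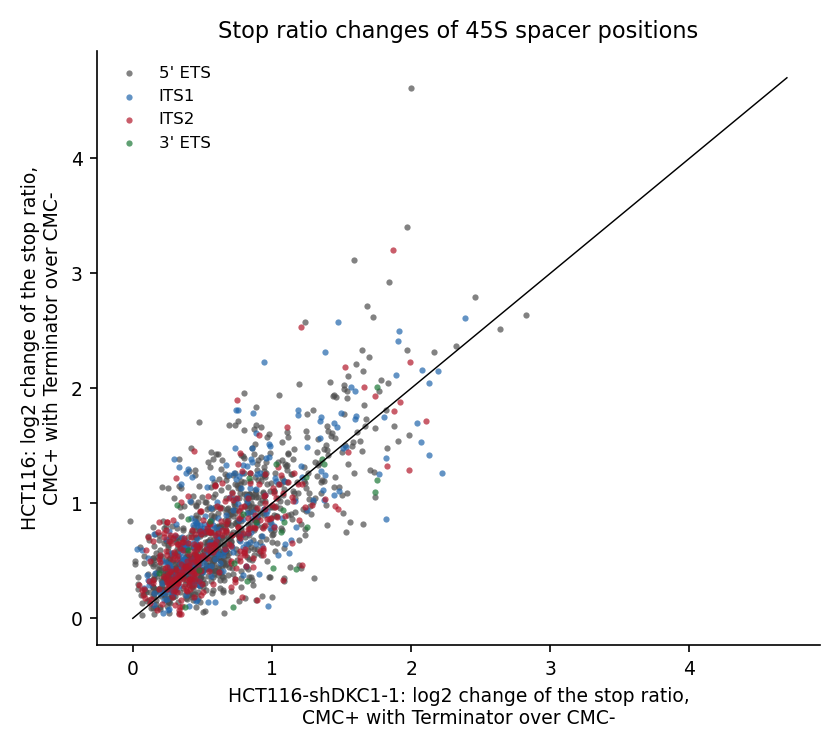
Log2 change of the stop ratio, CMC with Terminator over CMC-, in HCT116-shDKC1-1 (x axis) and in HCT116 (y axis), 1 point per tested spacer position, coloured by spacer, with the line of equal change. The listing keeps nearly all values above 0, the points scatter around the line, and nt 1977 of the 5′ ETS, the highest in HCT116, is at 2.00 in HCT116-shDKC1-1 and 4.61 in HCT116.

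Spacer RNA was covered more deeply in the Terminator libraries. In HEK293T, covering reads, scaled to library totals (RPM), were higher with CMC and Terminator than with CMC alone at 61 of 387 spacer positions and lower at 0, against a background of 11.1% called higher and 0.378% called lower. The median log2 change was 0.79 for the spacer positions and 0.42 for all positions, and all 387 spacer values were above 0. These values share reads and libraries and are not independent of each other. The median covering depth was 16.3 and 21.1 RPM with CMC and Terminator, 9.58 and 12.5 with CMC alone, and 10.8 and 16.4 without CMC. Both Terminator libraries stood above both CMC+ libraries, and replicate 1 with Terminator lay just below replicate 2 of CMC-. Mature 28S positions had a median log2 change of 0.86 and 18S positions 0.69. Of the 28S positions 30.4% were called higher and of the 18S positions 8.35%, against 15.8% of the spacer positions. Under TMM scaling, which brought the median of all positions close to 0, the spacer median was 0.38 and no spacer position was called. Over all positions TMM gave 135 higher and 713 lower calls, against 1647 higher and 56 lower at library totals. DESeq2 called 0 spacer positions. Without HEK293T CMC+ Terminator replicate 1 the count was 24, without its replicate 2 it was 33, and without HEK293T CMC+ replicate 2 it was 40.

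The calls lay in ITS2 (28 of 95), ITS1 (12 of 63), the 5′ ETS (20 of 226) and the 3′ ETS (1 of 3). Within ITS2 they were mostly between nt 7001 and 7500 of the precursor, where 26 of 54 positions were called. The U at nt 7153 in ITS2 of RNA45SN2, 413 nt after 5.8S, had the most CMC- covering reads of the tested ITS2 positions, with 64.0 and 98.9 RPM with CMC and Terminator, 28.9 and 44.2 with CMC alone, and 32.3 and 53.2 without CMC (log2 change over CMC+ 1.16 ± 0.0692, edgeR adjusted p = 6.96e-11). Its stop ratio was 1.22% and 0.976% with CMC and Terminator, 1.28% and 1.2% with CMC alone, and 1.2% and 0.944% without CMC. CMC+ against CMC- gave 0 calls (edgeR and DESeq2), against a background of 0% called. At an unadjusted p under 0.05, 137 of 387 positions were lower and 0 higher. Spacer positions had a median log2 change of -0.25 and all positions -0.17, and 0 of 387 spacer positions and 11.4% of all positions lay above 0. CMC and Terminator against CMC- gave 1 call in 387, the C 5 nt before 28S, against a background of 3.12% called higher and 0.627% called lower. That position had 41.9 and 62.8 RPM with CMC and Terminator, 19.4 and 27.8 with CMC alone, and 20.2 and 31.7 without CMC (log2 change over CMC- 1.01 ± 0.0908, SE, edgeR adjusted p = 1.88e-08). It was not called without HEK293T CMC- replicate 1 (0 called), under TMM scaling or by DESeq2. Without HEK293T CMC- replicate 2 there were 4 calls and without HEK293T CMC+ Terminator replicate 2 there were 5.

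In the HCT116 lines the spacers, like mature 28S, moved against the trend of all positions. CMC with Terminator against CMC- gave higher covering reads at 134 of 1433 spacer positions in HCT116-shDKC1-1 and 178 of 1433 in HCT116, and lower at 0 in both. The background was 4.68% called higher and 7.1% called lower in HCT116-shDKC1-1, and 4.83% and 6.76% in HCT116, so 9.35% and 12.4% of the spacer positions stood above the share of all positions called higher. The median log2 change was 0.38 in HCT116-shDKC1-1 (all positions -0.31) and 0.31 in HCT116 (all positions -0.32). Of the 134 knockdown calls, 128 were also HCT116 calls, which is 95.5% of the knockdown list and 71.9% of the HCT116 list. The overlap over all tested positions was not counted here either. Mature 28S positions had medians of 0.37 and 0.24 and 18S positions -0.03 and -0.17 in HCT116-shDKC1-1 and HCT116. Of the 28S positions 14.4% and 13.2% were called higher in the same order, and of the 18S positions 0% and 0%. A share above that of all positions was thus not particular to the spacers. Under TMM scaling the spacer medians were 0.53 in HCT116-shDKC1-1 and 0.55 in HCT116 and those of all positions -0.16 and -0.08, with 1677 higher and 691 lower calls over all positions in HCT116-shDKC1-1 (1223 and 1856 at library totals) and 1885 and 251 in HCT116 (1262 and 1768). Without HCT116-shDKC1-1 CMC- replicate 2 the knockdown count was 77, and without its replicate 1 it was 201.

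The change in coverage varied along the precursor. In HCT116-shDKC1-1 the median log2 change was 0.16 between nt 501 and 1000 of the 5′ ETS, with 1 of 124 positions called, and 0.67 between nt 3001 and 3500, with 20 of 101 called. In HCT116 it was 0.05 with 0 of 124 called and 0.84 with 34 of 101 called over the same stretches. In the last part of ITS2, between nt 7501 and 8000, the median was 0.88 with 33 of 82 called in HCT116-shDKC1-1 and 1.06 with 42 of 82 called in HCT116. At the start of ITS1, between nt 5501 and 6000, 18 of 126 positions were called in HCT116-shDKC1-1 and 25 of 126 in HCT116. Near its 3′ end, between nt 6501 and 7000, 0 of 30 positions were called in either line.

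The change with the largest size in HCT116 was at a thinly covered place. At nt 2956 of the 5′ ETS the copies RNA45SN1 and RNA45SN2 differ by 1 base in the printed window (C14T, counted from the 5′ end of the window, RNA45SN2 first), and the 2 versions had different depths. The RNA45SN1 version had 5.6 and 2.97 covering RPM in HCT116-shDKC1-1 with CMC and Terminator, against 1.46 and 0.441 in CMC-, and 4.76 and 2.46 in HCT116 with CMC and Terminator, against 0.367 and 0.416 in CMC-. The HCT116 CMC- values rest on 10 and 13 reads. Its log2 change was 2.18 ± 0.21 in HCT116-shDKC1-1 and 3.15 ± 0.27 in HCT116 (SE). The position entered the fit through the stop reads of the Terminator libraries, so these changes are given as a description, with no p. The RNA45SN2 version had 41.9 and 38.6 covering RPM in HCT116-shDKC1-1 with CMC and Terminator, against 34.6 and 29.6 in CMC-, and 26.8 and 29.0 in HCT116 with CMC and Terminator, against 21.9 and 26.8 in CMC-. Its stop ratio was 3.59% and 2.22% in HCT116-shDKC1-1 with CMC and Terminator, against 1.08% and 0.344% in CMC-, and 3.48% and 2.88% in HCT116 with CMC and Terminator, against 0.168% and 0.358% in CMC- (log2 change 1.97 ± 0.29 and 3.40 ± 0.43, SE). The RNA45SN2 version also passed the filter on stop reads mainly through the Terminator libraries, so its changes too are given with no p. The stop reads of both versions were equal in every library but 1: they were 35 and 23 in HCT116-shDKC1-1 with CMC and Terminator, 20 or 21 and 20 in HCT116 with CMC and Terminator, 11 and 3 in HCT116-shDKC1-1 CMC-, and 1 and 3 in HCT116 CMC-. Only the covering reads set the versions apart, so the call fell on coverage in one and on the stop ratio in the other. How reads that match several copies were assigned is not stated in the sources used here.

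**Figure D5:**
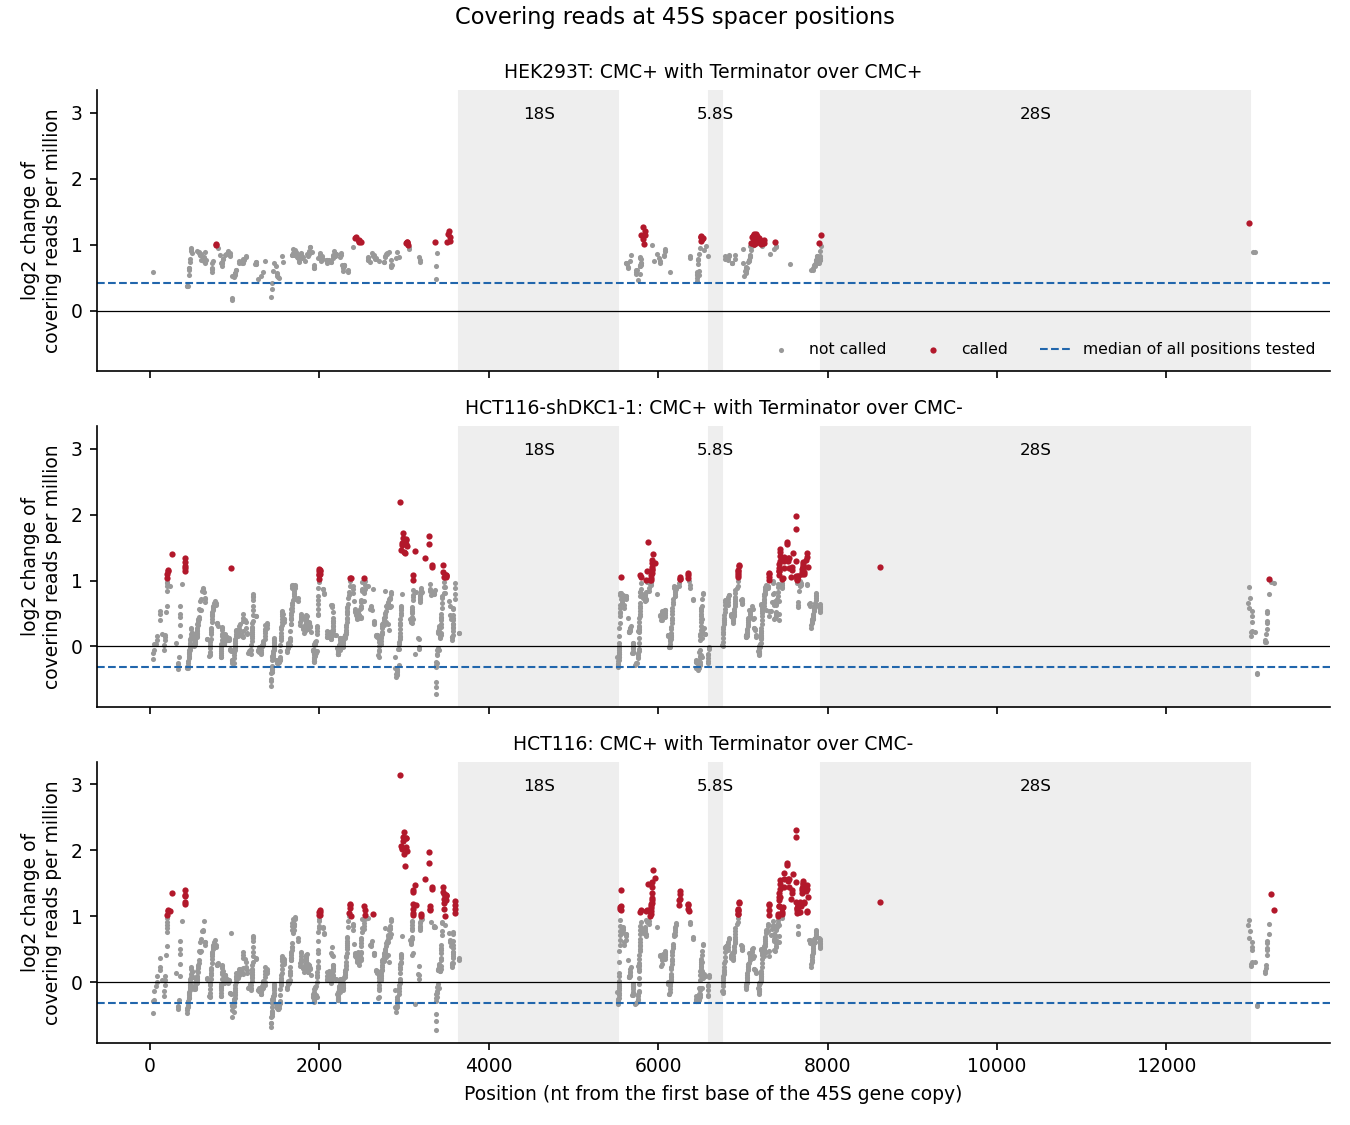
Log2 change of covering RPM (y axis) at each tested position by its distance from the first base of its 45S gene copy (x axis, nt), for HEK293T with CMC and Terminator over CMC+ (top), HCT116-shDKC1-1 with CMC and Terminator over CMC- (middle) and HCT116 with CMC and Terminator over CMC- (bottom). Called positions are red, the dashed line is the median of all positions tested (0.42, -0.31 and -0.32) and grey bands mark 18S, 5.8S and 28S of RNA45SN1; called positions lie in all spacers, and of the 5′ ETS, ITS1 and ITS2, ITS2 has the highest share called (29.5%, 19.3% and 23.6%), above ITS1 (19%, 9.56% and 13.5%) and the 5′ ETS (8.85%, 5.87% and 8.22%).

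Without CMC, the spacers of HCT116-shDKC1-1 and HCT116 differed by a small amount in coverage, in 1 direction at most positions. The median depth over 1465 positions was 46.4 and 52.0 RPM in HCT116-shDKC1-1 CMC- and 41.1 and 48.3 in HCT116 CMC-, so the groups overlapped. The median log2 change was 0.13, against 0.02 for all positions, -0.18 for mature 18S and -0.11 for mature 28S. Of the 1433 tested spacer values 1330 were above 0, against 55.1% of all positions. At an unadjusted p under 0.05 (edgeR), 190 were higher and 0 lower. Neighbouring positions share reads, and all rest on the same few CMC- libraries, so these counts are not independent observations. With each library left out in turn, the spacer median ran from -0.02 to 0.30. One of 1433 spacer positions was called higher and 0 lower, against a background of 0.0115% called higher and 0.00765% called lower. It was the C at nt 2995 of the 5′ ETS of RNA45SN1, with 13.8 and 5.36 RPM in HCT116-shDKC1-1 CMC- and 3.85 and 3.2 in HCT116 CMC- (log2 change 1.45 ± 0.28, SE, edgeR adjusted p = 0.0379). DESeq2 called 0. Without HCT116-shDKC1-1 CMC- replicate 1 its log2 change was 0.61 and it was not called. With the replicate number as a block there were 11 calls. The count was 0 without HCT116-shDKC1-1 CMC- replicate 1, HCT116 CMC- replicate 1 or HCT116 CMC- replicate 2, 49 without HCT116-shDKC1-1 CMC- replicate 2, and 13 to 16 without any 1 of the 4 Terminator libraries. In these bulk libraries, a change in the share of cells that make the precursor and a change in precursor per cell cannot be told apart. Whether spacer reads in poly(A)-selected RNA follow the amount of precursor in the cells was not tested.

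Among the RNAs that process the precursor, positions of 5 of 16 listed genes were tested in HEK293T and of 7 of 16 in the HCT116 lines. In HCT116-shDKC1-1, 33 of 123 positions had a higher stop ratio with CMC and Terminator over CMC-, and in HCT116 54 of 123, with calls in RMRP (the RNA of RNase MRP, which cuts ITS1), SNORD13 and the U3 genes SNORD3A, SNORD3B-1, SNORD3B-2, SNORD3C and SNORD3D. The background over all positions was 19.5% and 24.8%, and whether the list differs from it was not tested. U3 gene copies are near identical, so their reads may be shared. Their covering reads had medians of -0.40 in HCT116-shDKC1-1 and -0.42 in HCT116 on the log2 scale, with 14 positions higher and 8 lower in each line, against backgrounds of 4.68% higher and 7.1% lower in HCT116-shDKC1-1 and 4.83% and 6.76% in HCT116. In HEK293T with Terminator over CMC+, 1 of 35 such positions was called for the stop ratio, in RMRP, against a background of 0.897%, and none for covering reads (edgeR). Of 34 genes for processing and transcription proteins, 13 had tested positions in HEK293T, where 10 of 108 positions were higher and 1 lower in covering reads with Terminator over CMC+ (background 11.1% and 0.378%), with calls in DDX17, DKC1, FBL, IMP3, NCL, NHP2 and SNU13. In the HCT116 lines 7 of these genes had tested positions, and 6 of 13 positions had a higher stop ratio in each line.

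The genes whose summed covering reads followed those of the 45S spacers most closely were in part the spacers under another name. With the rRNA genes of the same repeat set apart, the highest Pearson correlations over the 6 HEK293T libraries among 684 genes were those of FP671120.1 (0.998), MIR3687-2 (0.998), MIR3648-2 (0.998), BSG (0.996) and MRPS34 (0.994). All 14 positions of FP671120.1 lay inside an annotated 45S gene, and 8 of 10 positions of MIR3648-2 and 4 of 9 of MIR3687-2 had a sequence that is also listed among the 45S positions. Over the 8 libraries of the HCT116 lines, among 975 genes and again with those rRNA genes set apart, MIR663AHG (0.962), NAP1L1 (0.958), CPOX (0.931), PTPRF (0.911) and MIR3648-2 (0.899) came first, and 14 of 37 positions of MIR663AHG shared a 45S sequence. The rRNA of the same transcript gave 0.996 or 0.997 for 28S and 0.968 to 0.975 for 18S in HEK293T, where the median over all genes was 0.8. In the HCT116 lines the 28S genes gave 0.887 to 0.921, RNA18SN1, with 3 positions, gave 0.851, RNA18SN2 and RNA18SN3 gave 0.513 and 0.546, and the median over all genes was -0.51. These correlations describe few libraries that share their totals and treatments.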

How the data were processed

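Stop reads and covering reads were taken from 10 deposited tables, each of which sets a treated library beside a CMC- library. Per the submitters' processing notes, the tools were cutadapt 2.8 and STAR, whose version is not given in the sources used here, and the build was hg38. The deposited values are whole counts in the Terminator tables of both HCT116 lines. For HEK293T, and for HCT116 without Terminator, the authors give expected counts with fractions, which were rounded for testing. The authors also deposited stop reads as RPM, and count over RPM gave the library totals. The control columns of the HCT116 tables without Terminator were assigned to the HCT116 CMC- libraries by the tables' names. No columns of per-sample values were left unassigned (0).

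Positions of the 45S genes were placed on RefSeq's rRNA annotation (GRCh38.p14, the primary coordinates of hg38). Where copies share a sequence, 1 copy listed in every table of a fit stands for it. Sequences were read from the tables.

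Counts were fitted with edgeR 4.0.16 (glmQLFit, glmQLFTest) in R 4.3.3, with covering reads as offset for the stop ratio and library totals as library sizes for covering reads. A position entered a test if every table of the fit listed it and 2 or more libraries had 10 or more stop reads. Adjustment was Benjamini-Hochberg across the whole fit. A call needs an adjusted p under 0.05 and a fold of at least 2, and an SE is the log2 change over the square root of F. The replicate number was a block in all fits except HCT116-shDKC1-1 against HCT116 without CMC, because the design text pairs CMC- and CMC+ within a replicate. Deviations from group means correlated between same-numbered libraries at 0.22 to 0.40 in HEK293T, 0.13 to 0.41 in the HCT116 lines and 0.59 in the tables without Terminator. DESeq2 1.42.0 was an alternative. The fits were tested on simulated data.

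Genes and positions were named by a rule: the 6 called positions with the largest change per comparison, the position of each spacer with most CMC- covering reads, positions within 20 nt of a mature end, and those listed in all tables. Values at these positions are given for those on which a result turns. Likeness used genes with at least 3 positions. The positions, gene lists and alternatives were chosen with earlier results of these data known. With 2 libraries a group, a single value cannot pass an exact permutation test (smallest two-sided p = 0.333), so none is given.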

Additional observations from a re-analysis of the deposited data

Results flagged for a closer look

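At library totals, covering reads at 3 named positions moved one way in both HCT116 replicates and the other way in both HEK293T replicates. The comparison was CMC and Terminator over CMC-. This difference between the lines was not tested, and the tables of the 2 lines were counted differently. The U at nt 1939 of the 5′ ETS of RNA45SN1 changed by -0.27 on the log2 scale in HCT116 and by 0.51 in HEK293T. The C 10 nt before 5.8S changed by -0.06 in HCT116 and by 0.71 in HEK293T. The U at the last base of 5.8S changed by -0.13 in HCT116 and by 0.40 in HEK293T. Over the 227 positions present in both fits, the median log2 change of covering reads was 0.20 in HCT116 (227 tested) and 0.52 in HEK293T (181 tested). These values depend on the scaling. Under TMM scaling the median of all tested spacer positions rose from 0.31 to 0.55 in HCT116, with 312 calls in place of 178. In HEK293T it fell from 0.55 to 0.33. The directions at the 3 positions are therefore stated for library totals only.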

How the results depend on the processing

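Spacer calls moved most with what stop reads were set against. With library totals in place of covering reads, the calls for the stop ratio were 79 for HEK293T Terminator over CMC+, 79 for HEK293T CMC and Terminator over CMC-, 770 in HCT116-shDKC1-1 and 789 in HCT116. With each library centred on its median they were 0, 0, 38 and 50 in the same order. DESeq2 gave 0, 0 and, in HCT116-shDKC1-1, 163. For covering reads, TMM scaling gave 0 for HEK293T Terminator over CMC+, 0 for HEK293T CMC and Terminator over CMC-, 228 in HCT116-shDKC1-1, 312 in HCT116 and 0 for HCT116-shDKC1-1 over HCT116 without CMC; DESeq2 gave 0, 0, 356, 352 and 0. The last count was also 0 with no filter on low counts and 0 with copies summed. It was 11 with the replicate block. Without the replicate block the 1 covering call of HEK293T CMC and Terminator over CMC- was lost (0); no other count moved by over 1.5 times, and same-numbered libraries are paired only by the design text. Leaving out positions whose window overlaps a mature rRNA gave 0 for both HEK293T stop ratio comparisons with Terminator and 0 for the HEK293T covering call, since all of those calls lay next to 28S.

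Leaving out each library in turn gave 0 to 2 calls for HEK293T Terminator over CMC+, stop ratio, 0 to 3 for CMC and Terminator over CMC-, 24 to 66 and 0 to 5 for covering reads in these 2 comparisons, 77 to 201 for covering reads in HCT116-shDKC1-1 and 0 to 49 for HCT116-shDKC1-1 over HCT116 without CMC. Except as stated, the cause was not tested. Of 480 values of single positions under alternatives, 437 kept their call, 43 lost it and 0 changed direction. Depth limits the positions with few CMC- reads, and 2 libraries a group limit every test.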
